A study of Mus musculus with 14 samples.

Results

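The comparison described here is the difference between 2 activation responses, that of C2C12 cells with a FoxM1 hairpin and that of C2C12 cells with a control hairpin. For each gene it is the change from quiescent to activated cells under the FoxM1 hairpin minus the same change under the control hairpin, on log2(FPKM + 1), where FPKM is a fragment count scaled to transcript length and library size. A positive value means that a gene rose more, or fell less, with the FoxM1 hairpin. It was computed for the 12432 of 49585 genes in the deposited table that had at least 1 FPKM in at least 3 of the 14 libraries. All 14 libraries enter it, namely 3 of quiescent and 3 of activated cells with the control short hairpin RNA (shControl), and 4 of quiescent and 4 of activated cells with a short hairpin RNA against FoxM1 (shFoxM1). C2C12 is a mouse myoblast line, and every group is this line. Quiescent cells were lifted from the dish and held in a methylcellulose medium with serum, while the labels give no procedure for activation, and they do not say when the hairpins were introduced, whether clones were picked or how the control hairpin was designed. The design text speaks of triplicates although the shFoxM1 groups have 4 libraries, and nothing states whether libraries come from separate cultures, so that p-values cover the spread among these 14 libraries only, some of which may be technical.

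FoxM1 is a forkhead transcription factor that is made in dividing cells. With the MuvB and B-Myb proteins it binds promoters of genes used in G2 and mitosis, many of which carry CCAAT boxes and a TTTGAA element (the cell cycle genes homology region). Myoblasts kept without attachment leave the cell cycle and stop dividing, and on return to a surface they enter S phase and spread on new matrix. A difference between the responses asks whether that programme ran differently once FoxM1 had been targeted.

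Estimated depth was 2.74e+07 to 3.62e+07 reads per library. Between 11281 and 12046 genes reached 1 FPKM. Myod1 and Des, defining genes of myoblasts, were present in every library (4.04 to 39.7 and 67.0 to 232 FPKM), and 0 of 10 endothelial markers reached 1 FPKM in any. Of the markers of other cell types, 2 of 10 for macrophages, 3 of 10 for adipocytes, 8 of 10 for fibroblasts, 4 of 14 for neural and epithelial cells and 3 of 10 for bone and cartilage reached 1 FPKM somewhere. Short RNAs made up 71.5 to 80.5% of the FPKM sum, lowest in activated shFoxM1 replicates 1 to 3 (71.5 to 72.5%). Transcripts of the mitochondrial genome held 5.51 to 16.5% of the sum of protein-coding genes, and both ends were quiescent shFoxM1 libraries, replicate 4 and replicate 3. Along the second principal component (14.7% of the variance) quiescent shFoxM1 replicate 4 lay at the far end (37.8). Next to it lay quiescent shControl replicate 3 (22.4), activated shControl replicates 3 and 1 (20.7 and 15.3) and activated shFoxM1 replicate 4 (20.5). The rest lay from -24.7 to 2.35, and what sets these libraries apart was not tested.

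Foxm1 itself (chromosome 6, 128362967 to 128376146, GRCm38) checks the labels. It stood at 23.9, 12.8 and 10.01 FPKM in quiescent shControl cells and at 37.1, 35.3 and 34.9 FPKM after activation. In shFoxM1 cells it stood at 9.95, 6.61, 8.0 and 15.6 FPKM when quiescent and at 14.5, 14.7, 27.6 and 11.2 FPKM when activated. The activated groups did not overlap, while the quiescent groups did. Over the libraries, the hairpins differed by -0.56 (log2) in quiescent cells (exact permutation test, two-sided p = 0.229) and by -1.11 in activated cells (exact p = 0.0571, the smallest possible being 0.0286). The activation response was 1.24 ± 0.34 in shControl cells (limma adjusted p = 0.0146) and 0.69 ± 0.29 in shFoxM1 cells (adjusted p = 0.0861), a difference of -0.55 ± 0.45 with a 95% interval of -1.50 to 0.41. FPKM is given per library throughout, and log2 values as the estimate ± SE.

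No gene passed the test of the difference. With limma's moderated test and Benjamini-Hochberg adjustment over all 12432 genes, 0 were called (0%), the lowest adjusted p was 0.993 and 433 genes had an unadjusted p under 0.05 (3.48%), 373 of them positive (3.00%) and 60 negative (0.483%). The number with an unadjusted p under 0.05 was 1103 without activated shControl replicate 3, 250 without quiescent shControl replicate 2, 269 with median-of-ratios scaling and 278 with quantile normalization. Array weights estimated gene by gene called 0 genes, and weights from limma's default estimate called 2663. That default estimate stopped before it converged and gave a weight of 53.7 to quiescent shControl replicate 2, against 0.147 to 5.27 for the other 13 libraries. Because every gene had an adjusted p of at least 0.993, it is not repeated below, and each difference named is an estimate that did not pass.

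The estimates themselves lay close to 0, with some width. Their SD over genes was 0.30, the 5th and 95th percentiles were -0.34 and 0.55, and 55 genes exceeded 1 while 50 lay below -1. The median SE was 0.283 and the median 95% interval reached 0.605 to either side. For 8794 genes the interval lay wholly between -1 and 1.

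**Figure D1:**
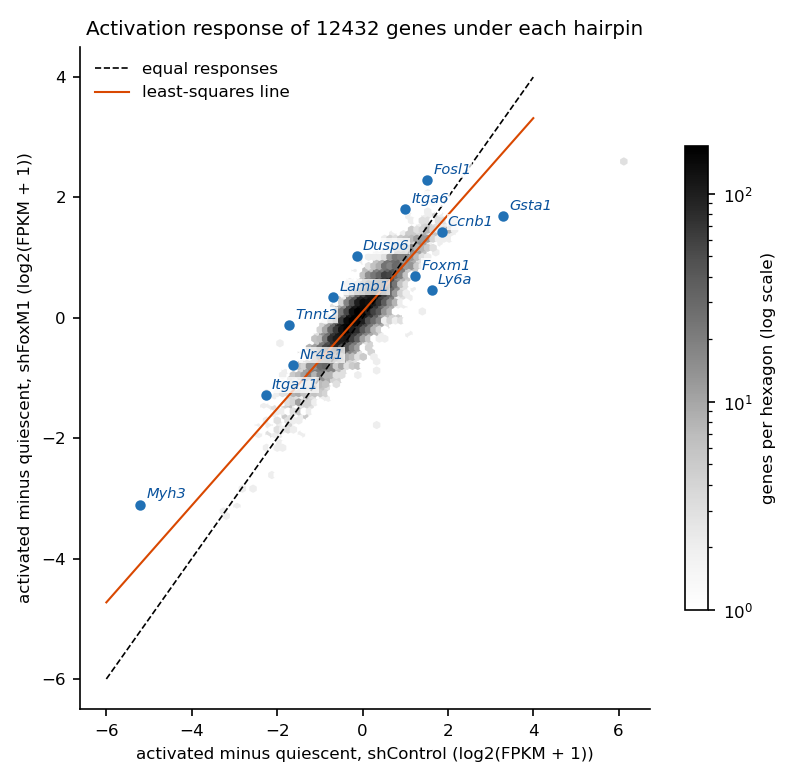
Activated minus quiescent (log2(FPKM + 1)) of 12432 genes in shControl cells (horizontal) and shFoxM1 cells (vertical), with darker hexagons holding more genes and 12 genes marked. Genes lie along the dashed line of equal responses, the least-squares line has a slope of 0.805, and Myh3, Tnnt2, Itga11 and Dusp6 lie above the dashed line while Gsta1 and Ly6a lie below it.

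Most of what moved on activation moved the same way under both hairpins. With the control hairpin 3515 genes changed (28.3%), of which 1460 rose (11.7%) and 2055 fell (16.5%). With the FoxM1 hairpin 3814 changed (30.7%), of which 2279 rose (18.3%) and 1535 fell (12.3%). The number that rose in both was 1270, the number that fell in both was 1270, and 0 genes rose in one and fell in the other. Another 785 genes fell and 190 rose with a call in shControl cells alone, and 265 fell and 1009 rose with a call in shFoxM1 cells alone, and the absence of a call in the other hairpin is not a difference between them.

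The medians of both responses can be set side by side for the genes called under one hairpin. The 2055 genes that fell in shControl cells had a median response of -0.89 there and -0.61 in shFoxM1 cells. By contrast, the 1460 genes that rose in shControl cells had medians of 0.79 and 0.78. Selecting on shFoxM1 cells gave 0.70 there against 0.60 in shControl cells for the 2279 risers, and -0.83 against -0.95 for the 1535 fallers. Choosing genes by a call in one hairpin can by itself make the value in the other smaller, although the 1535 fallers had the larger median in the other. These medians therefore describe the lists and test nothing. Across genes, which are not independent replicates, the slope of the shFoxM1 response on the shControl response was 0.805 and the reverse slope was 0.992 (Pearson r = 0.894).

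Compared within a state, the hairpins gave 0 called genes (0%) in either. An unadjusted p under 0.05 was reached by 263 genes in the quiescent state (2.12%) and by 978 in the activated state (7.87%). Libraries of both hairpins did not overlap for 388 genes when quiescent (3.12%) and for 1169 when activated (9.40%).

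A shift in one direction ran through the whole table. The median difference was 0.13, 70.3% of the estimates were positive, and the median response was -0.11 in shControl cells and 0.03 in shFoxM1 cells. Median-of-ratios scaling moved the median difference to -0.01 and quantile normalization to 0.01, while scaling to equal sums of protein-coding genes gave 0.17. Values of gene lists are therefore given below also as the distance from the median of all genes. Longer transcripts had larger values, with a Spearman rho of 0.40 between the difference and transcript length over 12410 genes. With genes cut into 3 classes of equal size by length, the shortest had a median of -0.0017, the middle class 0.14 and the longest 0.24, whereas GC content gave a rho of 0.10. The part of transcript length in the gene group results was not tested beyond the removal of a smooth trend on length and GC content, which is given beside most of them. That removal also takes out most of the general shift. The list of the beta-catenin destruction complex, for example, then had a median of 0.042 in itself and 0.039 above all genes. A list median with the trend removed therefore compares with the list's distance from all genes.

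Genes of muscle differentiation had the largest median difference of the 34 lists with at least 5 measured members. These genes encode the sarcomere and its calcium handling, and they come on when myoblasts leave the cycle and differentiate. Of 32 measured members, 30 fell with the control hairpin and 23 with the FoxM1 hairpin (16.5% and 12.3% of all genes), and 0 rose in either. The list median was -2.78 against -2.02. The difference had a median of 0.95 (0.82 above the median of all genes) and was positive for 30 of 32, with 5 members at an unadjusted p under 0.05, all positive.

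The embryonic myosin heavy chain Myh3 (chromosome 11, 67078300 to 67102291) had 12.1, 104 and 98.1 FPKM in quiescent shControl cells and 12.2, 30.7, 1.95 and 11.8 in quiescent shFoxM1 cells. After activation it had 0.09, 0.3 and 0.91 FPKM in shControl cells and 0.17, 0.17, 0.04 and 1.03 in shFoxM1 cells. Both activated groups were thus near 0, and the hairpins were furthest apart in the quiescent libraries, where shControl replicates 2 and 3 stood above all others and replicate 1 lay within the shFoxM1 range. Its response was -5.21 ± 0.77 in shControl cells and -3.10 ± 0.67 in shFoxM1 cells, a difference of 2.102 ± 1.02 (95% interval -0.07 to 4.27). The cardiac actin gene Actc1 showed the same layout, with 11.3, 88.4 and 94.6 FPKM in quiescent shControl and 21.8, 23.1, 0.57 and 26.8 in quiescent shFoxM1 cells, and a difference of 1.76 ± 1.22. Muscle creatine kinase, Ckm, had 4.09, 33.4 and 42.8 and 3.23, 5.45, 1.10 and 15.1 FPKM in these groups and a difference of 1.94 ± 0.98. In each of these 3 genes quiescent shControl replicates 2 and 3 were the highest libraries.

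Troponin T2 (Tnnt2), which anchors the troponin complex to tropomyosin, stayed detectable after activation. It had 51.3, 130.0 and 122 FPKM in quiescent and 21.9, 37.6 and 25.6 in activated shControl cells. In shFoxM1 cells it had 56.9, 50.4, 14.9 and 66.3 FPKM when quiescent and 30.96, 32.4, 78.8 and 25.7 when activated, where replicate 3 stood apart in opposite directions in the 2 states. The response was -1.72 against -0.12 and the difference was 1.60 ± 0.68 (95% interval 0.15 to 3.05). The calcium pump Atp2a2, whose product refills the sarcoplasmic reticulum, was the member with the smallest unadjusted p. Its FPKM was 57.1, 68.7 and 50.5 in quiescent and 34.8, 35.6 and 47.6 in activated shControl cells, against 54.8, 59.8, 50.6 and 52.9 and 58.6, 59.1, 81.2 and 55.9 in shFoxM1 cells. All 4 activated shFoxM1 libraries lay above all 3 activated shControl libraries, as for 1 of the 32 members (6.68% of all genes). The quiescent ranges overlapped, and the difference was 0.78 ± 0.23 (95% interval 0.29 to 1.27). The adult myosin Myh1, the thin filament ruler Neb and the actin-binding Xirp1 had 1.17 ± 0.38, 1.38 ± 0.63 and 1.17 ± 0.47. All 3 were near the floor after activation, with mean FPKM in shControl and shFoxM1 cells of 0.07 and 0.0375 (Myh1), 0.26 and 0.145 (Neb) and 0.14 and 0.23 (Xirp1). Neb and Xirp1 were named after their values were seen.

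The muscle values depended on which quiescent library was kept. The list median was 1.57 without quiescent shControl replicate 1, 0.63 without replicate 2 and 0.58 without replicate 3, and 0.86 with the length and GC trend removed. Without quiescent shFoxM1 replicate 3 the difference was 0.76 for Actc1, 1.46 for Myh3 and 1.13 for Tnnt2. In RNA from whole cultures, fewer differentiating cells and less RNA per cell cannot be told apart. Among the transcription factors that start this programme, Myod1 fell in both (the response was -1.38 in shControl and -1.86 in shFoxM1 cells) and so did Myog (-3.69 and -3.10). Their differences were -0.48 ± 0.45 and 0.60 ± 1.06. Myf5 did not pass in either, with responses of 0.31 and -0.31 and a difference of -0.62 ± 0.48, and activated shFoxM1 replicate 3 alone was low (15.04, 14.4, 4.02 and 14.5 FPKM). The wider list of myogenic regulators and fusion genes had a median difference of 0.22 over 25 members, 0.09 above all genes, a distance that was -0.14 without quiescent shFoxM1 replicate 3 and kept its sign in 22 of 31 alternatives.

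**Figure D2:**
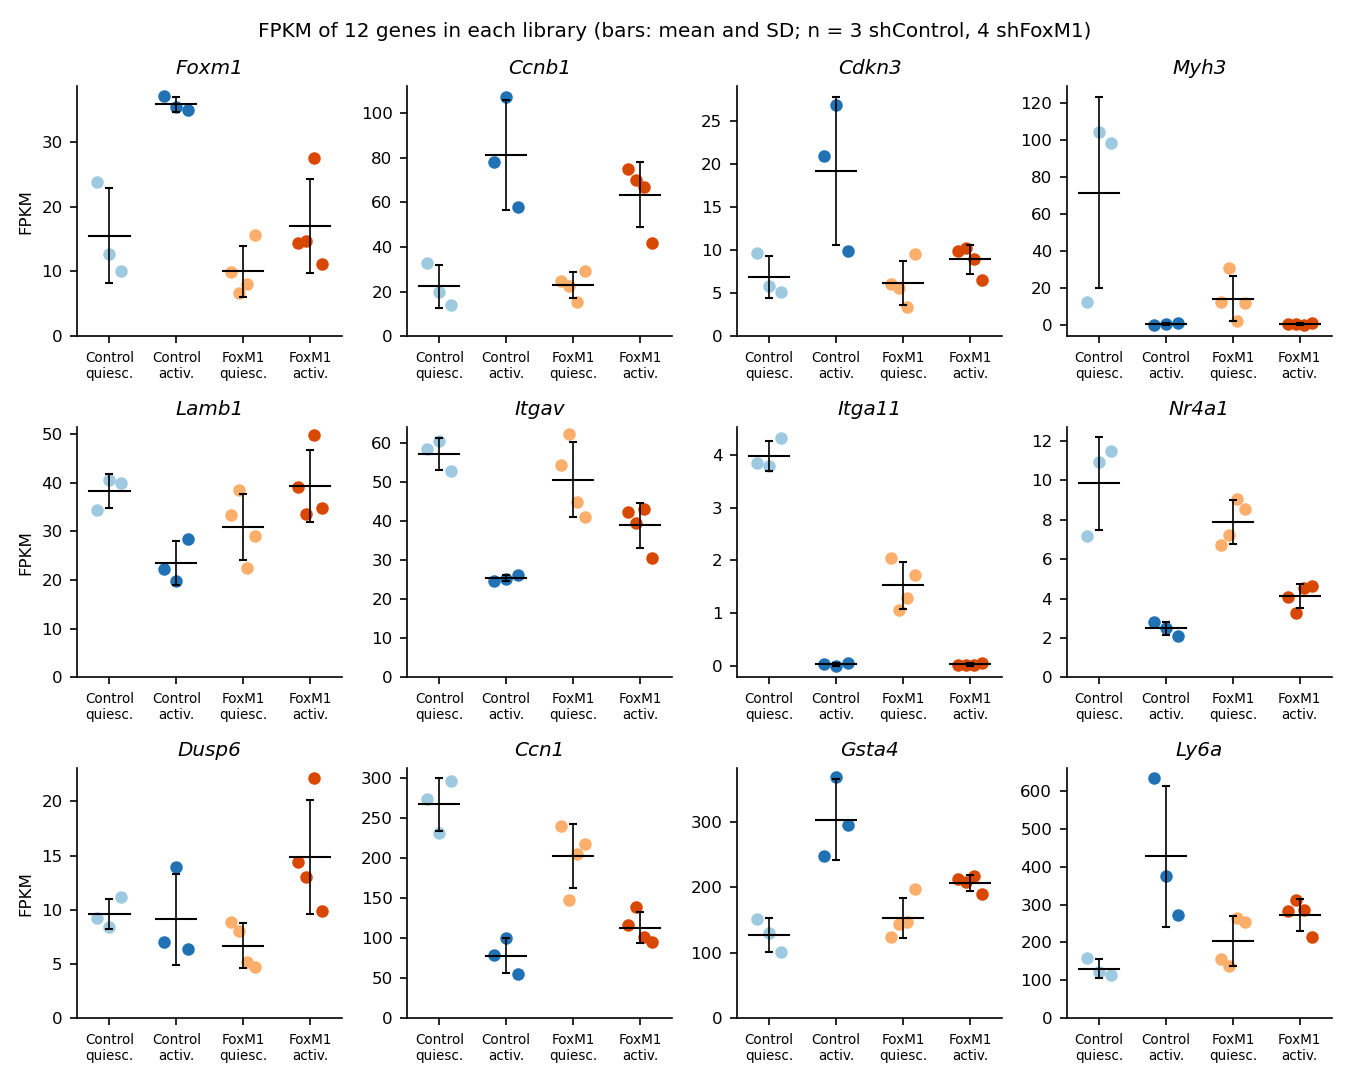
FPKM of 12 genes (1 panel each) in every library of the 4 groups, with the mean (line) and SD (bar), n = 3 for shControl and n = 4 for shFoxM1. Lamb1 and Itgav were higher in all 4 activated shFoxM1 libraries than in any activated shControl library, whereas Itga11 and Myh3 were near 0 in every activated library.

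Genes of the extracellular matrix fell under both hairpins and had a positive median difference. Collagens, laminins and matricellular proteins make up this list. Of 37 measured members, 32 fell and 0 rose with the control hairpin (16.5% and 11.7% of all genes). With the FoxM1 hairpin 28 fell and 1 rose (12.3% and 18.3% of all genes), and the medians were -1.76 and -1.18. The median difference was 0.54 (0.41 above all genes), 34 of 37 estimates were positive, and 8 had an unadjusted p under 0.05, all positive. In quiescent cells 9 of the 37 were lower in every shFoxM1 library than in any shControl library (2.45% of all genes), and after activation 2 were higher (6.68% of all genes). The members of this list had a median transcript length of 5784 bases, and with the length and GC trend removed the median difference was 0.28.

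The laminin beta chain Lamb1 (chromosome 12, 31265234 to 31329644), a building block of basement membranes, had 34.3, 40.6 and 40.01 FPKM in quiescent and 22.2, 19.9 and 28.5 in activated shControl cells. In shFoxM1 cells it had 33.4, 38.4, 22.5 and 29.1 FPKM when quiescent and 39.1, 33.5, 49.9 and 34.7 when activated. It fell in shControl cells (-0.69 ± 0.20, adjusted p = 0.0208) while the shFoxM1 response was 0.35 ± 0.18 (adjusted p = 0.152), a difference of 1.04 ± 0.27 (95% interval 0.46 to 1.61). The partner chain Lamc1 had a difference of 0.68 ± 0.25. Type IV collagen, the network-forming collagen of basement membranes, had similar estimates in its paired genes. Col4a1 had 57.95, 40.4 and 63.01 FPKM in activated shControl and 89.8, 72.8, 98.5 and 65.9 in activated shFoxM1 cells, which did not overlap, and the difference was 0.90 ± 0.26 (95% interval 0.34 to 1.47). For Col4a2, which shares a promoter region with Col4a1, the difference was 0.74 ± 0.27. The anti-adhesive thrombospondin Thbs2 fell in both (-1.77 and -1.05) with a difference of 0.72 ± 0.22, and there the groups were apart in quiescent cells, 43.2, 52.2 and 57.5 FPKM against 30.3, 31.8, 40.3 and 31.5, and overlapped after activation.

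Integrins, the receptors for these matrix proteins, showed the same direction. Of 19 genes of integrins and adhesion, 10 fell and 1 rose in shControl cells (16.5% and 11.7% of all genes). In shFoxM1 cells 9 fell and 1 rose (12.3% and 18.3% of all genes). The median difference was 0.53 (0.39 above all genes, and 0.27 in itself with the length and GC trend removed), 17 of 19 were positive, and 4 had an unadjusted p under 0.05. After activation 1 of the 19 was higher in every shFoxM1 library than in any shControl library (6.68% of all genes). In quiescent cells 2 were lower in every shFoxM1 library (2.45% of all genes). Itga11 (chromosome 9, 62677826 to 62783982), a collagen receptor subunit, had the smallest unadjusted p of the whole table. It had 3.85, 3.78 and 4.31 FPKM in quiescent shControl and 2.04, 1.06, 1.28 and 1.72 in quiescent shFoxM1 cells, and after activation 0.04, 0 and 0.05 and 0.02, 0.01, 0.02 and 0.06 FPKM. The quiescent groups did not overlap and both activated groups were at or near 0. It fell in both (-2.27 and -1.28 on the log2(FPKM + 1) scale, which understates the change of a gene this low), and the difference was 0.99 ± 0.22 (95% interval 0.52 to 1.47).

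Itgav, the alpha chain of vitronectin receptors, differed at the other end. Its FPKM was 58.3, 60.3 and 52.6 in quiescent shControl and 54.2, 62.1, 44.9 and 40.9 in quiescent shFoxM1 cells, which overlapped, and 24.6, 25.1 and 26.2 against 42.2, 39.5, 43.1 and 30.6 after activation, which did not. Its response was -1.14 ± 0.17 in shControl and -0.36 ± 0.15 in shFoxM1 cells, a difference of 0.78 ± 0.22 (95% interval 0.30 to 1.25). The fibronectin receptor chain Itga5 fell in both (-1.22 and -0.49) with a difference of 0.74 ± 0.24. The laminin receptor chain Itga6 rose in both (1.00 and 1.81) with a difference of 0.81 ± 0.34, so positive estimates stood both for a gene that rose and for genes that fell.

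**Figure D3:**
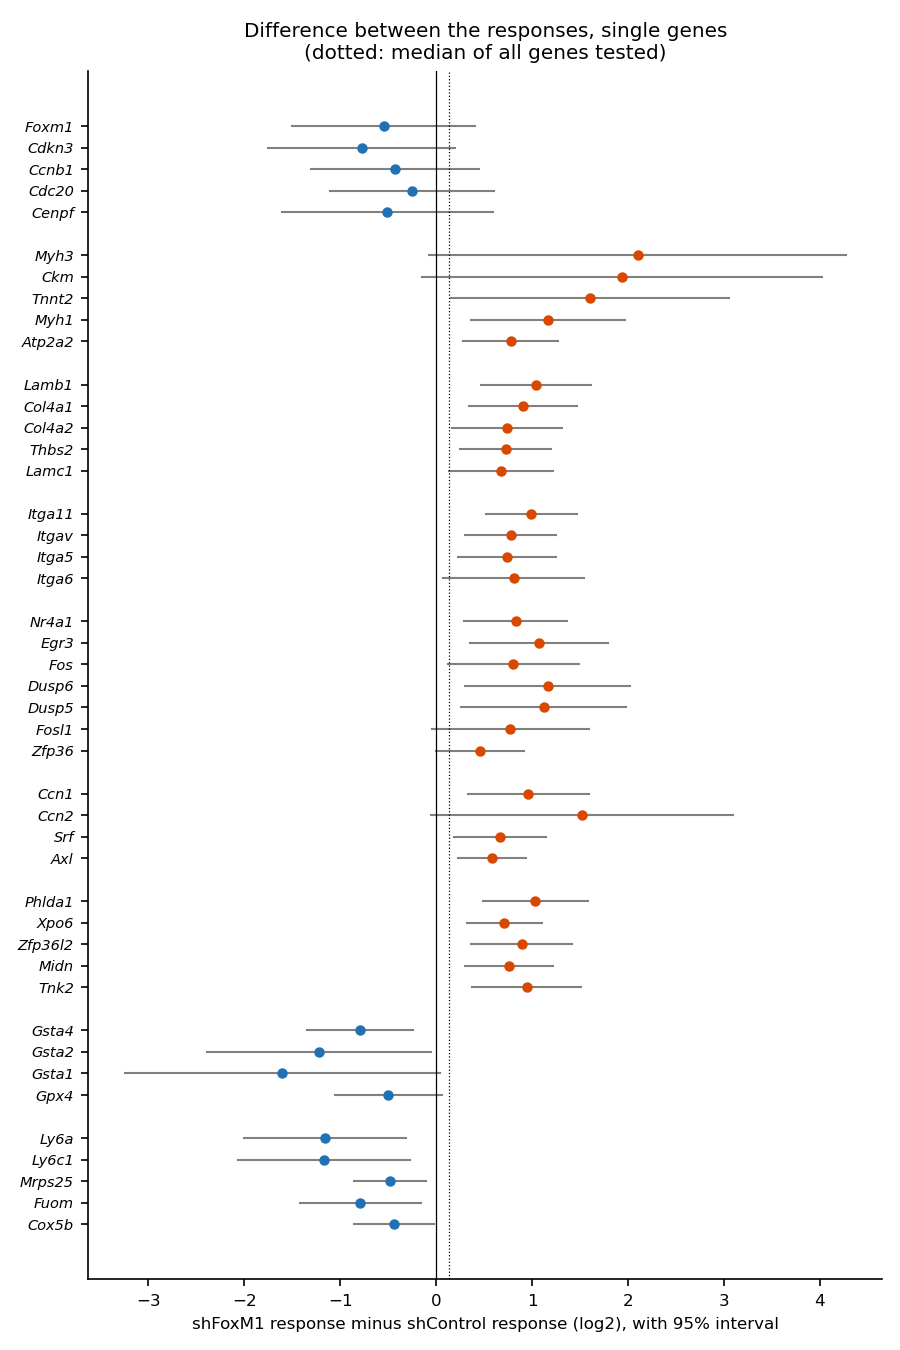
Difference between the responses (shFoxM1 minus shControl, log2) of single genes with its 95% interval, in blocks of cell cycle, muscle, matrix, integrin, immediate early, YAP and SRF, lowest-p, glutathione and lowest-p negative genes. The dotted line marks the median of all genes (0.13), and although many intervals leave out 0, no gene passed after adjustment over 12432 genes.

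Immediate early genes are switched on within minutes of a growth factor or of attachment, without new protein synthesis, and include feedback phosphatases of the ERK pathway. Of 23 measured members, 1 rose and 10 fell with the control hairpin (11.7% and 16.5% of all genes), and 5 rose and 5 fell with the FoxM1 hairpin (18.3% and 12.3% of all genes). The median response was -0.54 in shControl cells and 0.00 in shFoxM1 cells. The median difference was 0.49 (0.35 above all genes), 22 of 23 were positive, and 8 had an unadjusted p under 0.05, all positive. Taking out the length and GC trend left 0.37. After activation 2 of the 23 were higher in every shFoxM1 library than in any shControl library (6.68% of all genes). In quiescent cells 4 were lower in every shFoxM1 library (2.45% of all genes).

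The ERK phosphatases had their highest mean in activated shFoxM1 cells. Dusp6, which inactivates ERK in the cytoplasm, had 9.28, 8.45 and 11.2 FPKM in quiescent and 7.03, 13.9 and 6.41 in activated shControl cells. In shFoxM1 cells it had 8.90, 8.06, 5.15 and 4.72 FPKM when quiescent and 14.4, 13.04, 22.2 and 9.92 when activated, ranges that overlapped those of shControl cells in both states. It rose in shFoxM1 cells (1.03 ± 0.26, adjusted p = 0.00939) with a shControl response of -0.14 ± 0.30 (adjusted p = 0.76), a difference of 1.17 ± 0.40. Its nuclear counterpart Dusp5 had 5.94, 7.37 and 5.68 FPKM in activated shControl and 12.2, 8.53, 23.9 and 7.75 in activated shFoxM1 cells, which did not overlap, and a difference of 1.12 ± 0.40. Outside the list, the ERK phosphatase Dusp7 had a difference of 0.71 ± 0.21 and was among the 10 positive genes with the smallest p. The AP-1 subunit Fosl1 rose in both (1.51 and 2.28) with a difference of 0.77 ± 0.38.

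Nr4a1, Egr3 and Fos, transcription factors of the list, fell with the control hairpin. The orphan nuclear receptor Nr4a1 (chromosome 15, 101254269 to 101274795) had 7.15, 10.9 and 11.5 FPKM in quiescent and 2.81, 2.52 and 2.12 in activated shControl cells, and 6.70, 7.22, 9.07 and 8.56 and 4.09, 3.28, 4.53 and 4.65 in shFoxM1 cells. Every activated shFoxM1 library was above every activated shControl library, and the quiescent ranges overlapped. It fell in both (-1.62 ± 0.19 and -0.79 ± 0.16) with a difference of 0.83 ± 0.25 (95% interval 0.29 to 1.37). Egr3, a zinc finger factor induced by serum, had a difference of 1.07 ± 0.34, with quiescent shControl cells at 3.36, 2.88 and 3.23 FPKM and quiescent shFoxM1 cells at 2.01, 1.91, 0.93 and 1.37, which did not overlap. For the AP-1 subunit Fos the difference was 0.81 ± 0.32, with 0.54, 0.49 and 0.31 FPKM in activated shControl and 0.44, 0.61, 0.59 and 0.75 in activated shFoxM1 cells, all of them low.

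Targets of YAP and SRF, which respond to cell spreading and actin tension, lay nearer to the rest of the genes. Of 23 members, 0 rose and 12 fell in shControl cells (11.7% and 16.5% of all genes), and 3 rose and 6 fell in shFoxM1 cells (18.3% and 12.3% of all genes). The median difference was 0.28 (0.14 above all genes, and 0.045 without activated shControl replicate 3), with 3 members at an unadjusted p under 0.05. With the length and GC trend removed the median of the YAP and SRF targets was 0.11. After activation 2 of the 23 were higher in every shFoxM1 library than in any shControl library (6.68% of all genes). In quiescent cells 2 were lower in every shFoxM1 library (2.45% of all genes). The secreted matricellular protein Ccn1 (Cyr61) had 274, 232 and 297 FPKM in quiescent and 79.4, 100.2 and 55.7 in activated shControl cells. It had 240.3, 148, 205 and 218 and 117, 139, 102 and 95.6 FPKM in these states of shFoxM1 cells. Ccn1 fell in both (-1.79 ± 0.22 and -0.83 ± 0.19), with a difference of 0.96 ± 0.30 (95% interval 0.33 to 1.59). Its relative Ccn2 had a difference of 1.52 ± 0.74, but activated shFoxM1 cells spread widely (37.1, 20.8, 65.9 and 14.5 FPKM). Srf itself, the factor that binds CArG boxes, had 15.4, 11.4 and 15 FPKM in activated shControl cells and 20.0, 22.8, 21.8 and 19.4 in activated shFoxM1 cells, with no overlap, and a difference of 0.67 ± 0.23. The receptor tyrosine kinase Axl had 139, 127 and 138 FPKM in activated shControl and 189, 178, 190.1 and 175 in activated shFoxM1 cells, also without overlap. Axl rose in shFoxM1 cells (0.43 ± 0.11, adjusted p = 0.00931), had -0.16 ± 0.13 in shControl cells (adjusted p = 0.368), and differed by 0.58 ± 0.17.

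The remaining positive genes with the smallest p values carried related layouts. Phlda1, a pleckstrin homology protein induced by growth factors, had 37.01, 40.4 and 43.7 FPKM in quiescent and 28.1, 33.8 and 23.8 in activated shControl cells. It had 35.4, 27.3, 20.9 and 34.4 and 44.6, 37.9, 49 and 39.1 FPKM in quiescent and activated shFoxM1 cells. The shFoxM1 libraries were all lower than shControl ones when quiescent and all higher when activated, and the difference was 1.03 ± 0.26 (95% interval 0.49 to 1.58), with the second smallest unadjusted p of the table. The exportin Xpo6, which carries actin out of the nucleus, crossed over between the states in the same way, with a difference of 0.71 ± 0.18. The mRNA decay factor Zfp36l2 had 0.89 ± 0.25, the nuclear protein midnolin (Midn) 0.76 ± 0.21, the kinase Tnk2 0.94 ± 0.27 and the inactive rhomboid Rhbdf1 0.84 ± 0.24. Sema7a, a membrane-anchored semaphorin that binds integrins, was among the 6 highest estimates of named genes with a group mean of at least 5 FPKM (1.66 ± 0.58), with 6.27, 6.85, 1.75 and 5.47 FPKM in quiescent and 11.6, 8.22, 18.8 and 5.75 in activated shFoxM1 cells, where replicate 3 was the lowest and the highest library in turn.

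Genes of G2 and mitosis, the known FoxM1 targets, were induced under both hairpins. Of 40 measured members, 38 rose with the control hairpin, against 11.7% of all genes. With the FoxM1 hairpin 35 rose, against 18.3% of all genes. Under either hairpin 0 members fell (16.5% and 12.3% of all genes), and the list medians were 1.52 and 1.28. The median difference was -0.23 (-0.36 relative to all genes), 2 of the 40 estimates were positive, and 0 had an unadjusted p under 0.05 in either direction. Single estimates ran from -0.78 to 0.11. The sign of the list median turned without quiescent shControl replicate 3 (0.05) and with shFoxM1 replicates 1 to 3 alone (0.01), and it was -0.56 without quiescent shControl replicate 1. In no alternative did the median reach that of all genes, with distances of -0.65 to -0.10. With the length and GC trend removed the list median was -0.36, which compares with the distance of -0.36 and not with -0.23.

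Cyclin B1 (Ccnb1), the regulatory partner of Cdk1 at entry into mitosis, had 32.98, 20.04 and 14.1 FPKM in quiescent and 78.1, 107 and 58.1 in activated shControl cells. In shFoxM1 cells it had 24.9, 22.7, 15.4 and 29.1 FPKM when quiescent and 74.9, 69.96, 66.99 and 41.9 when activated, and both states overlapped between hairpins. It rose in both (1.85 ± 0.31 and 1.42 ± 0.27) with a difference of -0.43 ± 0.41 (95% interval -1.31 to 0.45). Cdkn3, a phosphatase that acts on Cdk1 and Cdk2, had the lowest estimate of the list. Its FPKM was 9.64, 5.86 and 5.14 in quiescent and 20.99, 26.9 and 9.92 in activated shControl cells, against 6.14, 5.57, 3.41 and 9.54 and 9.97, 10.2, 9.03 and 6.52 in shFoxM1 cells. It rose in shControl cells (1.30 ± 0.35, adjusted p = 0.013), had 0.52 ± 0.30 in shFoxM1 cells (adjusted p = 0.204) and differed by -0.78 ± 0.46, while activated shControl replicate 3 lay inside the shFoxM1 range.

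The kinetochore proteins Cenpf and Bub1 had differences of -0.51 ± 0.52 and -0.44 ± 0.51, the spindle protein Knstrn -0.40 ± 0.36 and the anaphase activator Cdc20 -0.25 ± 0.40. Leaving out 1 library moved Cenpf to between -0.93 (without quiescent shControl replicate 1) and -0.22 (without replicate 3), Bub1 to between -0.88 and -0.12 (the same libraries), and Knstrn to -0.65 and Cdkn3 to -1.17 (without activated shControl replicate 3). The mitotic kinases Plk1, Aurka and Cdk1 and the proliferation marker Mki67 had -0.13 ± 0.44, -0.11 ± 0.36, -0.18 ± 0.43 and -0.26 ± 0.65. The signs of Cdc20, Plk1, Aurka, Cdk1 and Mki67 turned in at least 1 alternative. All of these intervals included 0, and the widest, that of Mki67, ran from -1.65 to 1.14. DNA replication genes had equal medians under both hairpins (1.29 and 1.29), with 37 and 40 of 41 rising (11.7% and 18.3% of all genes). Their median difference was -0.05 (-0.19 relative to all genes, and -0.17 in itself with the length and GC trend removed).

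The promoter letters of these groups can be set beside their values. They were read from a RefSeq table of windows from 250 bases before to 50 bases after a gene's start (GRCm38.p6). Of the 40 measured G2 and mitosis genes 34 had a window, with 36 windows in all. CCAAT, on either strand, stood in 29 of these 36 windows (80.6%, against 37.4% of the 32851 windows in the table), and TTTGAA, on either strand, in 24 (66.7%, against 17.9%). The letters GGGCGG, on either strand, stood in 27 (75%, against 35.7%). Windows of the table include those of genes not measured here. The list was made of known FoxM1 targets, so its high shares of CCAAT and TTTGAA test nothing. Shown are the 250 bases before the start of Cdkn3 (chr14:46760291-46760540, plus strand), which had the lowest estimate of the list, and of Cdc20 (chr4:118437344-118437593, minus strand), whose estimate was near the list median, with CCAAT and TTTGAA of either strand in capitals.
Cdkn3: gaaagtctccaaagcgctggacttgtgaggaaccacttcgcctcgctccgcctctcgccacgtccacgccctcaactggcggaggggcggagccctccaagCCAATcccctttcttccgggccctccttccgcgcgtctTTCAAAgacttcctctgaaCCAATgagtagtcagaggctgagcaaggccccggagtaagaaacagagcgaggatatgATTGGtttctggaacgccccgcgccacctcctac
Cdc20: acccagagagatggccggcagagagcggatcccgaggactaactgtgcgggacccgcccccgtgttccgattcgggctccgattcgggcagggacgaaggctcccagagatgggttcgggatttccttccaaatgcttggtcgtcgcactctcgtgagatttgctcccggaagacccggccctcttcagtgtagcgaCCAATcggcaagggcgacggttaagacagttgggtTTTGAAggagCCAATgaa
Within these 250 bases Cdkn3 held CCAAT at 3 places and TTTGAA at 1, and Cdc20 held 2 and 1. Cdc20 rose in both (1.72 and 1.47), and its difference of -0.25 compares with -0.78 for Cdkn3.

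For the immediate early list 18 of 23 genes had a window, and the CArG box, the site of SRF, on either strand, stood in 6 of 22 windows (27.3%, against 1.63% of all windows). Among YAP and SRF targets, 19 of 23 genes had a window, and GGAATG, the core of TEAD sites, on either strand, stood in 10 of 22 windows (45.5%, against 14.7%). The CArG box stood in 7 of these 22 windows (31.8%). This list was made of targets of these factors, so its shares of both elements test nothing. GGAATG stood in 30% of muscle differentiation, 16.1% of matrix and 9.09% of immediate early windows, and the CArG box in 13.3% of muscle differentiation windows. GGGCGG stood in 72.7% of immediate early and 63.6% of YAP and SRF windows, against 35.7% of all windows. Its share was 61.3% for matrix and 23.3% for muscle differentiation genes. The mRNA decay factor Zfp36, an immediate early gene, had 10.5, 11.1 and 13.6 FPKM in quiescent and 5.36, 5.05 and 5.07 in activated shControl cells, and 9.10, 8.22, 11.2 and 8.68 and 6.29, 6.15, 4.65 and 6.39 in shFoxM1 cells, with a difference of 0.46 ± 0.21. Zfp36 (chr7:28379229-28379478, minus strand) and Ccn1 (chr3:145649986-145650235, minus strand) are shown because each holds the element of its list, in capitals the CArG box of Zfp36 and GGAATG, read on the other strand, of Ccn1.
Zfp36: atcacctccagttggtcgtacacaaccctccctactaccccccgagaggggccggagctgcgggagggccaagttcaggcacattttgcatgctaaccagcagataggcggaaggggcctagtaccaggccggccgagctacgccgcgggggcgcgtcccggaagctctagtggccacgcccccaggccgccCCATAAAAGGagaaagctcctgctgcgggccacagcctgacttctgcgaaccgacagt
Ccn1: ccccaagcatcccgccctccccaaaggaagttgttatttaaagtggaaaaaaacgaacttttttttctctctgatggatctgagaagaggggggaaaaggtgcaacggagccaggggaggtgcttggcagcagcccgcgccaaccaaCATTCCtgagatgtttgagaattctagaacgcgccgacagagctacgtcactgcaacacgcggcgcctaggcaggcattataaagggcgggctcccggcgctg
A match is a description of these letters and not of binding. The CArG box was found in 0 of the 31 windows of extracellular matrix genes, and no match says only that these letters are not in the window.

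**Figure D4:**
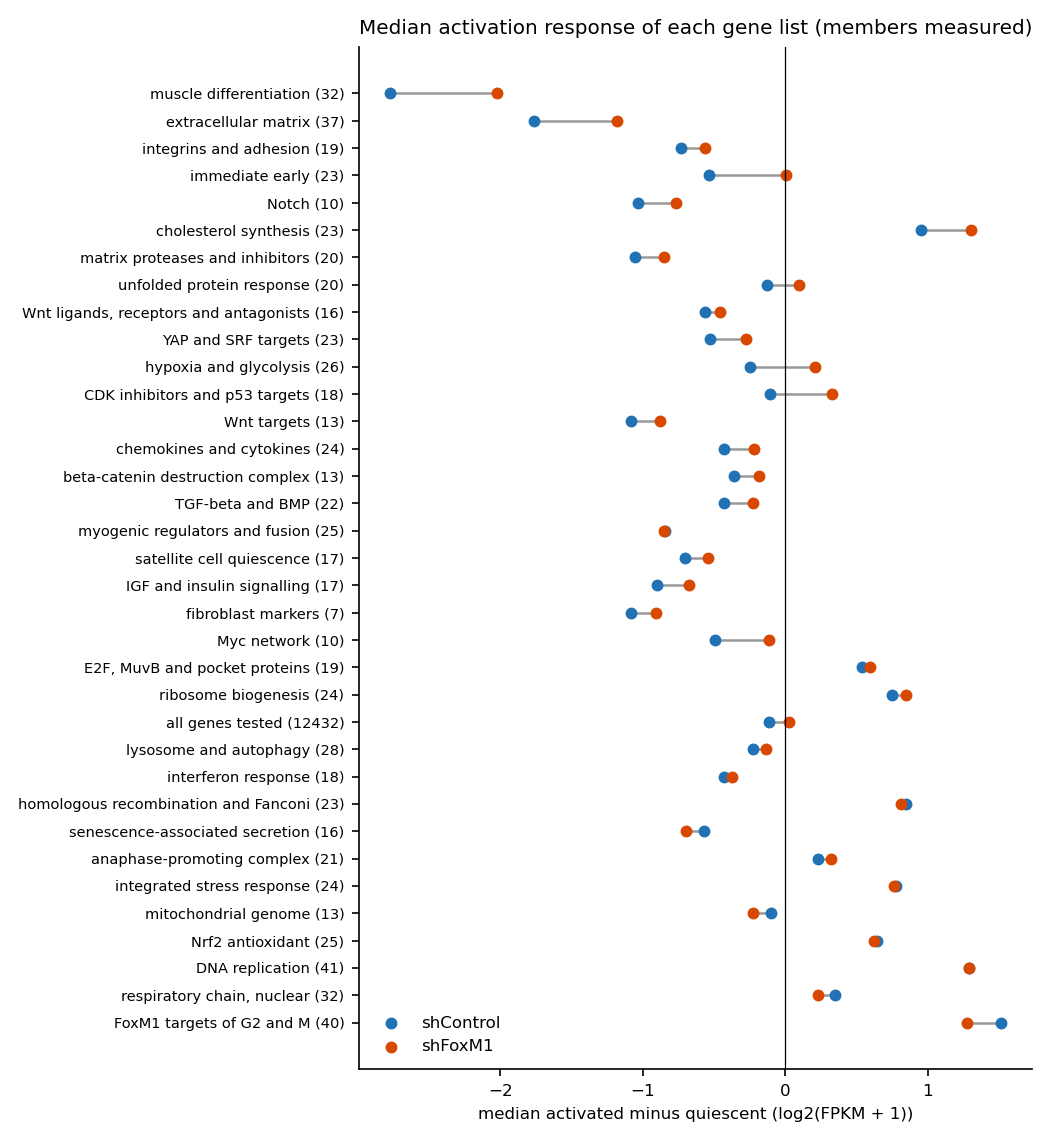
Median activation response (log2(FPKM + 1)) of each gene list with at least 5 measured members, in shControl and shFoxM1 cells, ordered by the median difference, with the number of members in brackets. Muscle, matrix and immediate early genes have the widest positive gaps at the top, and G2 and mitosis genes stand at the bottom with 1.52 and 1.28.

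Metabolic lists had smaller median differences. Cholesterol synthesis rose under both hairpins, for 10 of 23 members in shControl and 21 of 23 in shFoxM1 cells (11.7% and 18.3% of all genes). None fell, and the medians were 0.95 and 1.31. The difference had a median of 0.32 (0.19 above all genes), 0 members had an unadjusted p under 0.05, and it was 0.02 without activated shFoxM1 replicate 3 and 0.24 with the length and GC trend removed. The regulator Srebf2, a transcription factor of this pathway, had 43.4, 20.9 and 52.8 FPKM in activated shControl and 35.7, 51.02, 54.4 and 48.01 in activated shFoxM1 cells, which overlapped, and a difference of 0.56 ± 0.36.

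Hypoxia and glycolysis genes had medians of -0.25 in shControl and 0.21 in shFoxM1 cells. There 4 of 26 rose and 5 fell in shControl cells, where 11.7% and 16.5% of all genes did, and 8 rose and 3 fell in shFoxM1 cells, where 18.3% and 12.3% did. The median difference was 0.28 (0.14 above all genes, 0.046 without quiescent shFoxM1 replicate 2, and 0.15 in itself with the length and GC trend removed), with 24 positive. The oxygen-sensing prolyl hydroxylase Egln1 rose in shFoxM1 cells (0.41 ± 0.14, adjusted p = 0.0427), had -0.23 ± 0.17 in shControl cells and differed by 0.64 ± 0.22. The glycolytic regulator Pfkfb3 and hexokinase 2 (Hk2) differed by 0.54 ± 0.21 and 0.70 ± 0.32. In the Notch pathway the ligand Jag2 had 1.33, 1.04 and 1.87 FPKM in activated shControl and 1.69, 1.76, 1.94 and 1.95 in activated shFoxM1 cells, which overlapped, and a difference of 0.70 ± 0.23. The Notch effector Rbpj differed by 0.67 ± 0.32 (0.38 without activated shControl replicate 1), and the Notch list of 10 genes had a median of 0.47 (0.33 above all genes, 0.15 above them without activated shControl replicate 2, and 0.17 in itself with the length and GC trend removed).

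The alpha class glutathione transferases Gsta4, Gsta1 and Gsta2 had negative estimates, while the Nrf2 list that holds them was divided. Gsta4 (chromosome 9, 78182774 to 78209349), which detoxifies products of lipid peroxidation, had 152, 129.7 and 101 FPKM in quiescent and 247, 369 and 295 in activated shControl cells. It had 124, 143, 147 and 197 and 213, 208, 218 and 189.5 FPKM in shFoxM1 cells, with the activated groups apart and the quiescent groups overlapping. Gsta4 rose in shControl cells (1.25 ± 0.19, adjusted p = 6.87e-04), had 0.45 ± 0.17 in shFoxM1 cells (adjusted p = 0.0538), and differed by -0.79 ± 0.26 (95% interval -1.34 to -0.24). Its relatives Gsta1 and Gsta2 had -1.60 ± 0.77 and -1.22 ± 0.55, and as near copies they may share reads. Gpx4, the glutathione peroxidase that acts on membrane lipids, had -0.50 ± 0.26. The Nrf2 list as a whole had a median of -0.04 (-0.18 relative to all genes, and -0.10 in itself with the length and GC trend removed) over 25 members, 12 of them positive. In all, 15 members rose in shControl and 13 in shFoxM1 cells (11.7% and 18.3% of all genes). After activation 2 of the 25 were lower in every shFoxM1 library than in any shControl library (2.73% of all genes), and 1 was higher (6.68%).

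The GPI-anchored surface proteins Ly6a and Ly6c1, on one chromosome and similar in sequence, also had negative estimates. Ly6a (chromosome 15, 74994877 to 74998031), also known as Sca-1, had 159, 122 and 113 FPKM in quiescent and 634, 376 and 273 in activated shControl cells. It had 158, 138, 266 and 254 and 283, 311, 287 and 213 FPKM in shFoxM1 cells, and both states overlapped between hairpins. It rose in shControl cells (1.62 ± 0.30, adjusted p = 0.00173), had 0.47 ± 0.26 in shFoxM1 cells (adjusted p = 0.189), and differed by -1.16 ± 0.39. Ly6c1 had a difference of -1.17 ± 0.42. Ly6a was also in the list of fibroblast markers, whose summed level was 252 to 288 FPKM in quiescent and 337 to 680 FPKM in activated shControl libraries. In those of shFoxM1 cells it was 253 to 379 and 259 to 379 FPKM. Most of the activated shControl sums was Ly6a itself, with 634, 376 and 273 of 680, 412 and 337 FPKM. By list median the markers fell, with responses of -1.08 in shControl and -0.91 in shFoxM1 cells. In shControl cells 2 rose and 3 fell (11.7% and 16.5% of all genes), and in shFoxM1 cells 1 rose and 5 fell (18.3% and 12.3%). The part of such cells was not tested. The 7 measured fibroblast markers had a median difference of 0.20, with 4 positive.

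Other negative genes with small p values were the serine protease inhibitor Serpinb1a, the mitochondrial ribosomal protein Mrps25 and the fucose mutarotase Fuom. Serpinb1a fell in shFoxM1 cells (-1.19 ± 0.26, adjusted p = 0.00355), had -0.15 ± 0.30 in shControl cells and differed by -1.04 ± 0.39. Mrps25 rose in both (1.11 and 0.63) and differed by -0.48 ± 0.18, with 44.2, 48.5 and 41.3 FPKM in activated shControl and 37.2, 44.1, 41.4 and 33.7 in activated shFoxM1 cells. Fuom differed by -0.79 ± 0.30. Snapc5, Zfp950 and Pigp differed by -0.65, -1.08 and -0.62.

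Nuclear genes of the respiratory chain leaned the same way by small amounts. Of 32 members, 13 rose and 0 fell in shControl cells (11.7% and 16.5% of all genes), and 10 rose and 1 fell in shFoxM1 cells (18.3% and 12.3%). The median difference was -0.17 (-0.30 relative to all genes), with 3 positive. After activation 7 of the 32 were lower in every shFoxM1 library than in any shControl library (2.73% of all genes). Cox5b, a subunit of cytochrome c oxidase, rose in shControl cells (0.74 ± 0.15, adjusted p = 0.00267), had 0.30 ± 0.13 in shFoxM1 cells (adjusted p = 0.0859) and differed by -0.44 ± 0.20. Its activated libraries held 363, 378 and 388 FPKM in shControl and 335, 321, 339 and 355 in shFoxM1 cells. Ndufa1 of complex I and Uqcrq of complex III differed by -0.35 ± 0.20 and -0.45 ± 0.26. These transcripts were short, with a median length of 1591 bases. With the length and GC trend removed, the distance of the list median from all genes went from -0.30 to -0.15. Transcripts of the mitochondrial genome spread far more between libraries of a group. The oxidase subunit mt-Co2 ranged over 959, 1291, 1944 and 168 FPKM in quiescent shFoxM1 cells alone, and its difference of -1.40 ± 1.00 had a 95% interval of -3.54 to 0.74.

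Apc, the scaffold of the beta-catenin destruction complex, had 22.1, 19.6 and 15.3 FPKM in quiescent and 9.63, 11.9 and 11.4 in activated shControl cells, and 28.5, 28.4, 22.7 and 7.96 and 18.8, 14.7, 16.1 and 11.4 in shFoxM1 cells. Its difference was 0.36 ± 0.46, that of beta-catenin (Ctnnb1) 0.17 ± 0.29, and that of the Wnt feedback gene Axin2 -0.31 ± 0.29, which fell in both (-1.49 and -1.80). Cyclin D1 (Ccnd1) rose in both (1.69 and 1.94) and differed by 0.25 ± 0.37. The CDK inhibitor Cdkn1a and the retinoblastoma gene Rb1 differed by 0.50 ± 0.52 and 0.32 ± 0.34. The signs of Apc, Ccnd1 and Myog turned in at least 1 alternative. Of the 19 genes of main interest, among them Foxm1, the cell cycle genes and the myogenic factors, 18 were measured, 8 estimates were positive and 0 had an unadjusted p under 0.05. Pax7, the factor of satellite cells, was at most 0.08 FPKM. The destruction complex list had a median difference of 0.24 over 13 genes (0.11 above all genes) and Wnt targets one of 0.25 (0.11 above all genes, but -0.012 relative to them without quiescent shControl replicate 1). With the length and GC trend removed these medians were 0.042 and 0.075. Among 16 Wnt ligands, receptors and antagonists, with a median of 0.28 (0.15 above all genes), 1 had an unadjusted p under 0.05. This was the ligand Wnt10a, with 15.6, 16.8 and 23.5 FPKM in quiescent and 6.98, 4.83 and 7.36 in activated shControl cells, and 11.98, 12.4, 6 and 9.50 and 6.76, 9.18, 4.47 and 5.56 in shFoxM1 cells. Its quiescent libraries were all lower in shFoxM1 cells (2.45% of all genes), its activated ones overlapped, and its difference was 0.86 ± 0.36 (95% interval 0.10 to 1.63). The intervals of Apc, Ctnnb1, Axin2, Ccnd1, Cdkn1a and Rb1 included 0.

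Some of the highest and lowest estimates lay among noncoding RNAs. The long noncoding genes Gm26917 and Gm42418, both on chromosome 17, had 2.15 ± 0.68 and 1.95 ± 0.67, and in both a single library was high. Gm26917 had 38.8, 18.8 and 164 FPKM in quiescent shControl cells, where replicate 3 was the high one, and 7.27, 11.3, 7.56 and 7.63 in quiescent shFoxM1 cells, all lower. Gm48275 was listed at 0 in all 3 activated shControl libraries, at 0, 2.64 and 2.89 FPKM in quiescent shControl, 0.62, 0, 0 and 0 in quiescent shFoxM1 and 0.56, 0.61, 1.72 and 0 in activated shFoxM1 cells, so no fold is given. On the negative side were the antisense gene Med9os (-0.80 ± 0.29), 1700007L15Rik (-0.71 ± 0.28) and 2610203C22Rik (-0.70 ± 0.31), all at most a few FPKM, and whether strand was used in counting is not given in the sources used here. Rn7s1, the RNA of the signal recognition particle, had 30903, 29021 and 49149 and 56669, 170939 and 48729 FPKM in shControl cells, quiescent and activated, and 101559.7, 87097, 126868 and 41968 and 124741, 31319, 34487 and 32998 in shFoxM1 cells. Its libraries split into high and low values within groups, it has a near copy in the table, and the difference was -1.99 ± 0.76. The U2 spliceosomal RNA gene Rnu2-10, used by every cell, was listed at 1028, 0.15 and 1.14 FPKM in quiescent shControl and 595, 1035, 0 and 1098 in activated shFoxM1 cells, so that its estimate, the lowest of the table and shared by identical copies, rests on libraries listed at 0.

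**Figure D5:**
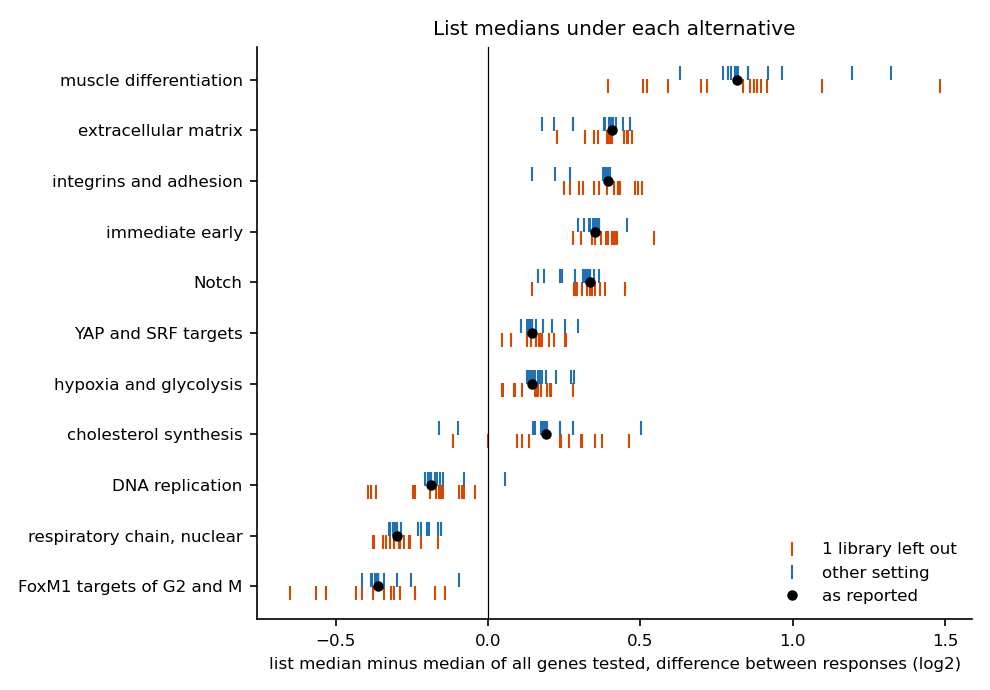
List medians of the difference between the responses minus the median of all genes (log2) for 11 gene lists, as reported (black) and recomputed with 1 library left out (lower ticks) or another setting (upper ticks). Muscle, matrix, integrin and immediate early lists stayed above 0 in every alternative run, and G2 and mitosis and respiratory genes below it, while cholesterol synthesis and DNA replication crossed 0.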

How the data were processed

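RNA from C2C12 myoblasts was sequenced in 14 libraries (3 per state for shControl, 4 per state for shFoxM1). Per the labels' protocols, total RNA was extracted with Trizol and libraries were made with an Illumina TruSeq kit. Expression was deposited by the authors as FPKM per gene in 1 table. Bowtie 0.12.9, Cufflinks 2.1.1 and HTSeq are named, with the mm10 genome, per the submitters' processing notes, and which of them made these values, and whether strand was used, is not given in the sources used here. FPKM is relative to each library's total, so highly abundant short RNAs can move all other values. Depth is not stated: it was estimated from the size of 1 read among low values, of which 92.7 to 95.5% lay within 0.25 of a whole step. Gene positions come from GENCODE M21, which matched 49326 of 49585 IDs, and 25170 genes were at 0 in every library.

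Values were analysed as log2(FPKM + 1) with limma 3.58.1 in R 4.3.3, with a mean for each of 4 groups, an intensity trend in the variance and Benjamini-Hochberg adjustment at 0.05. The difference between the responses was a contrast over all 14 libraries. It was first run on simulated data in which 200 genes were changed. How many of these were called is not given here, so that run does not show what a count of 0 could miss. The filter was at least 1 FPKM in at least 3 libraries. Foxm1 was compared between hairpins by exact permutation. Same-numbered libraries were checked for pairing: over 19 such pairs the correlation of deviations had a median of 0.026 (range -0.23 to 0.38), and 8 exceeded 0.1, so no block was used. Over 54 pairs with other numbers the median was -0.030, with a wider range of -0.68 to 0.67. The highest was that of activated shControl replicate 3 with activated shFoxM1 replicate 4. This check covers the replicate number only, and other structure shared by libraries was not modelled. Alternatives covered the pseudocount, filter, scaling, array weights, removal of a trend on length and GC content (mgcv 1.9.3), a replicate block and leaving out each library.

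Named genes were those of main interest, the 10 smallest p in each direction and the 6 highest and lowest estimates among named genes with a group mean of at least 5 FPKM, the 2 smallest p of each list and 3 noncoding genes in each direction. Further members of the lists were named after their values were seen. The contrast, members and gene lists were chosen with earlier results of these data known. Some genes are not reported here.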

Additional observations from a re-analysis of the deposited data

Results flagged for a closer look

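Both shFoxM1 groups of 4 libraries were examined for 86 genes named here and for measures of the libraries, 184 sets of 4 values in all. In 18 sets 1 library lay far from the other 3 by Dixon's criterion for the gap to the nearest library. Chance gives about 1 in 20 for a single set. Many of the genes were chosen by their values and all sets share these libraries, so the count of 18 is not compared with that rate. No difference between the hairpins' responses passed its test, so none is listed on that ground.

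Activated shFoxM1 replicate 4 stood high for the muscle genes Myh3 (1.03 FPKM), Actc1 (1.49 FPKM), Ckm (1.84 FPKM) and Myog (6.33 FPKM). The same library had the highest share of short RNAs of its group (77.5% of the FPKM sum) and the lowest sum of protein-coding genes (626599 FPKM). Activated shFoxM1 replicate 3 stood high for Tnnt2 (78.8 FPKM), Atp2a2 (81.2 FPKM) and Egr3 (2.98 FPKM) and low for Myf5 (4.02 FPKM) and Zfp36 (4.65 FPKM). Rn7s1 reached 124741 FPKM in activated shFoxM1 replicate 1.

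Among quiescent shFoxM1 libraries, replicate 3 stood high for the matrix genes Col4a1 (114 FPKM) and Thbs2 (40.3 FPKM). Replicate 4 stood low for Ctnnb1 (122 FPKM) and for the number of genes at 1 FPKM (11403). Replicate 2 stood high for Gm26917 (11.3 FPKM) and replicate 1 for Gm48275 (0.62 FPKM, the others being listed at 0).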

How the results depend on the processing

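The count of 0 genes for the difference between the responses stood in every alternative except limma's default array weights (2663 genes, from an estimate that stopped before converging). Those weights called 9544 genes for activation in shControl and 7273 in shFoxM1 cells, and gene-by-gene weights, chosen after seeing the data, called 7356 and 7055. Leaving out 1 library gave 1903 to 4347 genes for activation in shControl cells (1903 without quiescent replicate 2, 2196 without activated replicate 2) and 2705 to 4898 in shFoxM1 cells. Over left-out libraries the Foxm1 difference ran from -0.89 to -0.30 and the slope from 0.718 to 0.877, and with shFoxM1 replicates 1 to 3 alone they were -0.17 and 0.920. With the replicate number as a block, which the pairing check did not back, 0 genes were called for the difference, and 3983 and 4167 for activation in shControl and shFoxM1 cells.

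Some single estimates turned sign, all without a call. Myog was -0.14 with a pseudocount of 0.1 and -0.044 to 1.29 over left-out libraries, and Rn7s1 was 0 after quantile normalization. With shFoxM1 replicates 1 to 3 alone, Cdk1 was 0.22, Aurka 0.21, Plk1 0.19 and Cdc20 0.10. Over left-out libraries Cdk1 ran from -0.50 to 0.060, Mki67 from -0.83 to 0.17, Aurka from -0.37 to 0.12, Plk1 from -0.45 to 0.14, Cdc20 from -0.54 to 0.045, Apc from -0.046 to 0.53 and Ccnd1 from -0.011 to 0.45. The causes were not tested. Depth is an estimate, and values below about 1 FPKM rest on few reads. With 3 or 4 libraries a group, the median 95% interval reached 0.605 to either side for a single gene, without adjustment. A call after adjustment over 12432 genes asks for more. Itga11 (0.99 ± 0.22) and Lamb1 (1.04 ± 0.27) were not called, so differences of this size could be missed.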
